A study of Mus musculus with 12 samples.

Results

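Rpph1, Rmrp and Terc are the genes of 3 short non-coding RNAs that work as the catalytic or templating part of an enzyme. They were followed through 12 RNA-seq libraries of mouse embryonic fibroblasts in which the single-stranded DNA-binding proteins Ssb1 and Ssb2 can be deleted. The members are the 3 rows of the deposited read count table with these symbols, of 47517 rows in all, and all 3 were among the 17609 genes that passed the filter on low counts. They were selected by symbol, and earlier results of these data were known when the set was chosen.

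Rpph1 is the RNA subunit of nuclear RNase P, which cuts the 5′ leader off precursor transfer RNAs. Rmrp is the RNA subunit of RNase MRP, a related enzyme that shares most of its proteins with RNase P and cuts the precursor of ribosomal RNA. In humans, mutations of its counterpart cause cartilage-hair hypoplasia. Terc carries the template that telomerase copies onto chromosome ends, and it is bound by the dyskerin proteins that also hold box H/ACA small nucleolar RNAs. Rpph1 and Rmrp are made by RNA polymerase III from promoters that lie wholly upstream of the RNA, whereas Terc is made by RNA polymerase II and trimmed at its 3′ end.

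The cells were taken from E13.5 embryos of strain C57BL/6 and immortalised with SV40 large T antigen, delivered by a retroviral vector. Every group carried floxed alleles of Ssb1 (symbol Nabp2) and Ssb2 (symbol Nabp1). The inducible cells were Cre +ve, with the genotype label Ssb1 Fl/F; Ssb2 Fl/Fl, and carried Cre-ERT2 at the Rosa locus, a recombinase that enters the nucleus when 4-hydroxytamoxifen (4-OHT) is present. Their counterparts were Cre -ve and labelled Ssb1 Fl/Fl; Ssb2 Fl/Fl. Cells of each line received 4-OHT for 5 days, ethanol (its vehicle) for 5 days, or nothing, which gives 6 groups of 2 libraries. The labels do not say how many embryos or clones stand behind a line. They also do not say whether the pair of libraries in a group are separate cultures, and p-values therefore reflect only library-to-library spread, which could be technical.

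The RNAs are shown first because their short length and their overlap with other genes decide which reads can be assigned to them. They were read from the GRCm38 genome at GENCODE M21 coordinates, and all 3 genes have 1 exon and lie on the minus strand. Rpph1 occupies chr14:50807449-50807767 and is 319 bases long, of which positions 1 to 300 are printed (chr14:50807468-50807767). Its capitals, positions 36 to 268, mark the 233 bases that an annotated exon of Ccnb1ip1 also covers on the same strand. Rmrp occupies chr4:43492783-43493063 and is 281 bases long. Its capitals, positions 41 to 164, mark the 124 bases complementary to an annotated Ccdc107 transcript. Terc occupies chr3:96414437-96414859 and is 423 bases long, of which positions 1 to 200 (chr3:96414660-96414859) and 324 to 423 (chr3:96414437-96414536) are printed. Its capitals mark the template letters CCTAACCCT at positions 28 to 36 and the box ACA, 3 bases before the 3′ end.
Rpph1: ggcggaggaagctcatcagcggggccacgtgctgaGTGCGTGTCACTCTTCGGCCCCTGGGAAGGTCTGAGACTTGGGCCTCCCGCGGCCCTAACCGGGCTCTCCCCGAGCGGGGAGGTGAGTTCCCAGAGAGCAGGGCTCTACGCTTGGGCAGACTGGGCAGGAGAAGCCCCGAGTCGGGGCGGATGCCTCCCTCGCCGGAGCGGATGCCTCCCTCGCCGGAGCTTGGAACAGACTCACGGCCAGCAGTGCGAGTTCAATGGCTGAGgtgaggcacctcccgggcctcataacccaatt
Rmrp: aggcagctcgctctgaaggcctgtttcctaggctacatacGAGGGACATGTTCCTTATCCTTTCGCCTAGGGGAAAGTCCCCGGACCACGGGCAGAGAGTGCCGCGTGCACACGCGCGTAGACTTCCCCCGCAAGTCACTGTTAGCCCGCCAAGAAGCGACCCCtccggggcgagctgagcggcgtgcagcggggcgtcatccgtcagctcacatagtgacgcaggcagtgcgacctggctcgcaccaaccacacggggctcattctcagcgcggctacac
Terc start: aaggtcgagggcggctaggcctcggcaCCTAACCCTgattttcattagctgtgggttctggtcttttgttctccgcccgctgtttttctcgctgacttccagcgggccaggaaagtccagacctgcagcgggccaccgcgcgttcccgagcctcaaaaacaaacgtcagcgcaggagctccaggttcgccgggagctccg
Terc end: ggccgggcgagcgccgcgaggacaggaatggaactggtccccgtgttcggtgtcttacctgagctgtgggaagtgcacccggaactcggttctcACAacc
RefSeq gives slightly other ends, with lengths of 325 bases for Rpph1, 275 for Rmrp and 397 for Terc. The GENCODE model of Terc has 26 bases more at its 5′ end than the RefSeq model. Aligned end to end, Rpph1 and Rmrp shared 48.6% of 333 alignment columns, Rpph1 and Terc 44.7%, and Rmrp and Terc 40.6%. No run shared by any pair was longer than 9 bases.

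The neighbours of the 3 genes were looked up in GENCODE M21, because shared positions can move reads between genes. Only genes with any count in the 12 libraries were considered. The start of Parp2, which encodes a DNA damage-responsive poly(ADP-ribose) polymerase, lies 73 bases upstream of Rpph1 on the opposite strand. Ccnb1ip1, the overlapping gene on the Rpph1 strand, had 6 counts over all 12 libraries. Ccdc107, a coding gene on the opposite strand, overlaps 164 bases of Rmrp. Terc has no overlapping gene among these. Its nearest neighbours are the pseudogene Gm21960, 1075 bases away, and the snRNA gene Gm24136, 7873 bases away. The sources used here do not give whether counting used strand, so reads of Rmrp and of Ccdc107 within their overlap may be mixed.

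**Figure D1:**
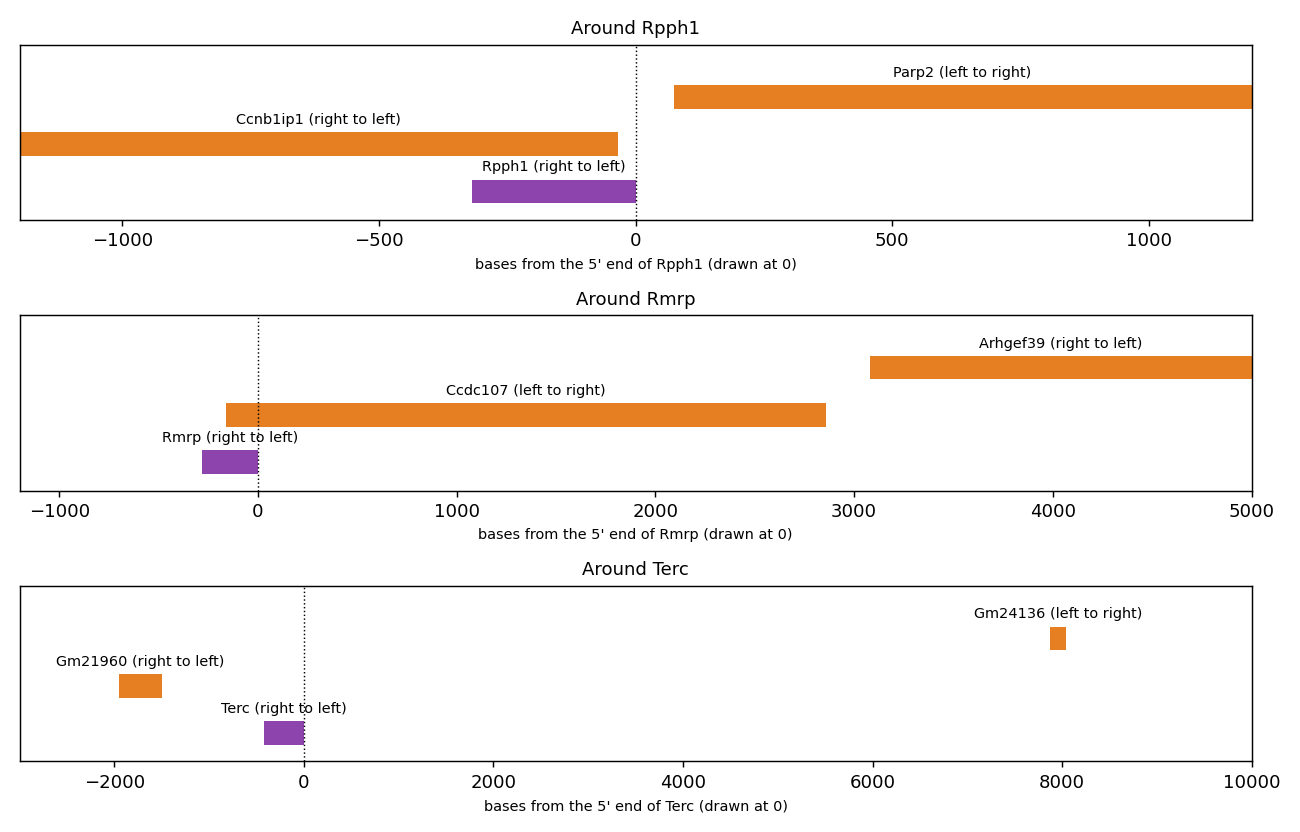
Map of the genes around Rpph1, Rmrp and Terc in GENCODE M21, with the horizontal axis in bases from the 5′ end of each RNA gene, drawn at 0. Purple bars are the RNA genes and orange bars their neighbours, each labelled with its direction of transcription. Parp2 starts 73 bases from Rpph1, Ccdc107 overlaps 164 bases of Rmrp, and no gene with counts overlaps Terc.

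The upstream DNA of Rpph1 and Rmrp could be shown because it falls in the RefSeq promoter windows (GRCm38.p6, 300 bases) of the coding genes on the other strand. The members themselves had no entry there. Capitals mark an octamer, ATTTGCAT or its reverse complement, the letters that Oct-1 binds, and the TATA letters TATAA, both searched on both strands. The first 102 bases of the Parp2 window, chr14:50807666-50807965 on the plus strand, lie inside Rpph1. The Ccdc107 window is chr4:43493115-43493414 on the plus strand.
Parp2: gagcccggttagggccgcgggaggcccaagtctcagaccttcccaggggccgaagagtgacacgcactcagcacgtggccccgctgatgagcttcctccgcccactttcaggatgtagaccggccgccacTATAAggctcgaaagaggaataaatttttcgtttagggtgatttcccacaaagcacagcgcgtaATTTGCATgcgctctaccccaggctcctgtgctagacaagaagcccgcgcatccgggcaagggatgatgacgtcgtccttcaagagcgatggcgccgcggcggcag
Ccdc107: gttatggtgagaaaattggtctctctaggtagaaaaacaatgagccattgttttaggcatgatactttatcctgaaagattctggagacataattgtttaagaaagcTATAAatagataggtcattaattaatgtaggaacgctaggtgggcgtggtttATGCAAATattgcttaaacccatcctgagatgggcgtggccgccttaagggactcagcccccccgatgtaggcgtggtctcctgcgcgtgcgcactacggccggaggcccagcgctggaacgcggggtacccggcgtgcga
Counted from the first base of Rpph1, TATAA lay 29 bases and the octamer 93 bases upstream. Counted from Rmrp, TATAA lay 159 bases and the octamer 211 bases upstream, and the window does not reach the bases next to the RNA. In both windows TATAA matched on the printed plus strand, opposite to the RNA genes. Of 32817 RefSeq promoter windows of the same length, 570 (1.74%) held the octamer and 8163 (24.9%) held TATAA. A match is a run of letters and not a shown binding site.

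Library totals ran between 20201855 and 36367012 counts. Fibroblast markers summed to between 5292 and 7613 CPM (counts scaled to a common library total) in the 12 libraries, with Thy1 at 4 counts or fewer in each. The marker sums of epithelial, haematopoietic, endothelial, skeletal muscle and neural cells stayed under 10 CPM. The targets checked the labels. Nabp2 averaged 4.97 ± 0.18 CPM in Cre-positive 4-OHT cells and 21.2 ± 2.0 CPM in Cre-positive ethanol cells, and Nabp1 averaged 3.68 ± 0.40 and 15.2 ± 1.0 CPM in the same groups (SD, n = 2 each). In ethanol, Cre-positive cells already had less Nabp1 than Cre-negative cells (log2 fold change -0.74, adjusted p = 4.56e-08 by edgeR) and less Nabp2 (-0.31, adjusted p = 0.00138). Library 6, of the Cre-negative 4-OHT group, stood apart in genes that were otherwise close to 0, with 219 counts of Rprl2 against 0 to 4 in the others. Reported tests that use it are therefore given without it as well for the 3 RNAs, Parp2, Ccdc107, Gar1 and Rn7sk.

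Rpph1 was among the most abundant RNAs of the table. Averaged over libraries it ranked 3 of 17609 tested genes by CPM, and it took between 0.837% and 1.16% of all counts of a library. Rmrp ranked 473 and Terc 8147. Per kilobase of RefSeq length, Rpph1 levels lay between 25833 and 36148 CPM per kb with a median of 33352. Rmrp levels lay between 831 and 1655 CPM per kb with a median of 1131. Terc levels lay between 29.8 and 55.2 CPM per kb with a median of 47.0. The ranges did not overlap in any of the 12 libraries. Reads behind these levels numbered 174953 to 397504 for Rpph1, 5554 to 12083 for Rmrp and 349 to 691 for Terc, so Terc has the least precise values.

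**Figure D2:**
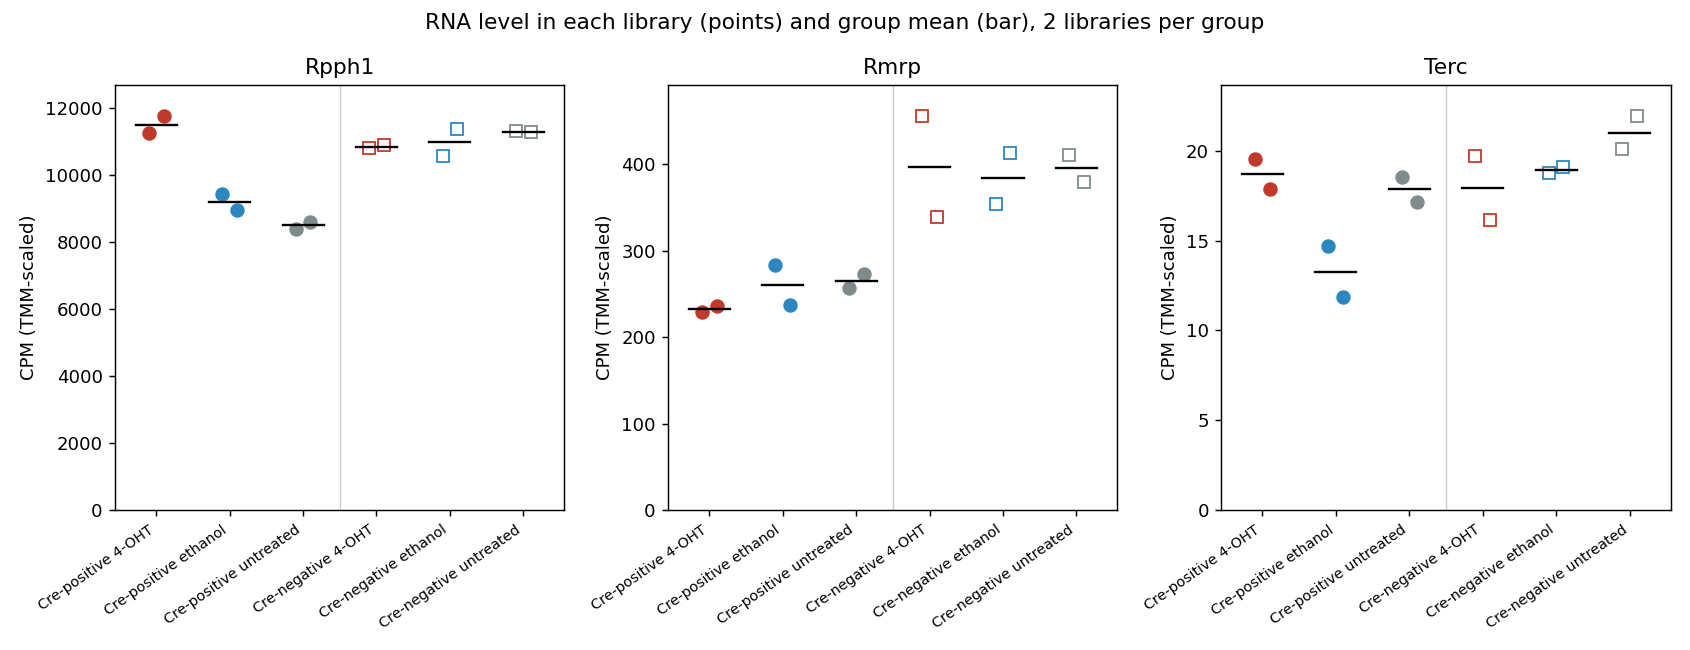
Levels of Rpph1, Rmrp and Terc in CPM (vertical axes, starting at 0) in each of 12 libraries, with 2 points per group and a bar at the group mean. Filled circles are Cre-positive and open squares Cre-negative libraries. Rpph1 is highest in Cre-positive 4-OHT cells among the Cre-positive groups, Rmrp is lower in every Cre-positive library than in every Cre-negative one, and Terc is lowest in Cre-positive ethanol cells.

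The first question was how the RNA of RNase P differed after 4-OHT in Cre-positive cells, where Nabp1 and Nabp2 fell. No Cre-positive group lacked the floxed alleles. For all 3 RNAs, loss of Ssb1 and Ssb2 and Cre activity under 4-OHT therefore cannot be told apart. With 4-OHT, the libraries of Cre-positive cells held 11252 and 11748 CPM of Rpph1, against 9435 and 8967 CPM with ethanol. The untreated Cre-positive libraries had 8396 and 8598 CPM. Both 4-OHT libraries thus lay above all 4 other Cre-positive libraries. The rise over ethanol was 1.25-fold (95% interval 1.18 to 1.32; log2 0.32, SE 0.037, adjusted p = 8.73e-07 by edgeR's quasi-likelihood test), and the rise over untreated cells was 1.35-fold (1.28 to 1.43; adjusted p = 8.65e-09). Of all tested genes, 38.3% were called against ethanol, 21.1% higher and 17.2% lower, and 39.2% against untreated cells, so a call by itself sets no gene apart. The libraries are bulk samples, in which fewer cells that make an RNA and less of it per cell cannot be told apart. The share of mitochondrial counts also moved, at 1.83% and 1.92% with 4-OHT and 1.49% and 1.74% with ethanol. Malat1, a nuclear RNA, fell by 0.16 (adjusted p = 0.0355), a call lost with robust variance and when some single libraries were left out. Adipocyte and cartilage markers summed to 22.2 to 24.7 CPM with 4-OHT and 14.9 to 16.5 CPM with ethanol, and 3 of the 5 tested rose. Skeletal muscle markers summed to 9.92 to 9.94 CPM with 4-OHT and 7.15 to 7.44 CPM with ethanol, and 2 of 2 tested rose. This number was 1 without the filter, with scaling by library totals or by RLE, with robust variance or with only the compared groups. Endothelial markers summed to at most 1.46 CPM with 4-OHT and at most 0.626 CPM with ethanol (1 of 2 rose), and neural markers to 6.43 to 6.69 CPM with 4-OHT and 4.75 to 5.03 CPM with ethanol (1 of 1 rose). In each of these marker sets fewer rose when some single libraries were left out, and for skeletal muscle markers this held whichever library was left out. The part of the mitochondrial, Malat1 and marker values in the rise of Rpph1, or in that of Terc in the same comparison, was not tested.

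In Cre-negative cells 4-OHT left Rpph1 at 10795 and 10884 CPM, against 10579 and 11373 CPM with ethanol and 11312 and 11269.9 CPM untreated. The 4-OHT values lay inside the ethanol range. The log2 change against ethanol was -0.02 (95% interval -0.10 to 0.06; adjusted p = 0.845), in a comparison where 5.99% of genes were called. Against untreated cells it was -0.06 (-0.14 to 0.02; adjusted p = 0.315), where 19.2% were called. Without library 6 these changes were also -0.02 and -0.06. The 4-OHT effect on Rpph1 differed between the lines by 0.34 on the log2 scale with ethanol as the baseline (SE 0.053, adjusted p = 6.25e-05), and 28.3% of genes passed this test in either direction. With untreated cells as the baseline it differed by 0.50 (SE 0.053, adjusted p = 7.78e-07), where 23.8% passed. Without library 6 these differences were 0.35 and 0.50, and both passed. Both comparisons of a line share their 4-OHT libraries, so they are not independent of each other.

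With 4-OHT, Rpph1 in Cre-positive cells overlapped the levels of untreated and ethanol Cre-negative cells. Both of these libraries lay above both Cre-negative 4-OHT libraries. Group means, high to low, were 11500.2 ± 350 CPM in Cre-positive 4-OHT cells, 11291 ± 30 in Cre-negative untreated, 10976 ± 561 in Cre-negative ethanol, 10839.5 ± 62 in Cre-negative 4-OHT, 9201 ± 331 in Cre-positive ethanol and 8497 ± 143 in Cre-positive untreated cells (SD, n = 2 each). The libraries of the first 4 groups overlapped from each to the next, and the ranges of the last 2 groups stood clear. Between Cre-positive and Cre-negative 4-OHT cells the log2 difference was 0.09 (95% interval 0.01 to 0.16; adjusted p = 0.0538), which missed the threshold with all 12 libraries and passed in some alternatives. Without library 6 it was also 0.09 (adjusted p = 0.12). In that comparison 60.7% of genes were called. Rpph1 was lower in Cre-positive than in Cre-negative cells with ethanol (log2 -0.25, SE 0.037, adjusted p = 5.4e-06) and untreated (-0.41, SE 0.037, adjusted p = 5.98e-09). The shares of genes called were 54.5% with ethanol and 49% untreated.

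For Rmrp no effect of 4-OHT passed the test in Cre-positive cells. Cre-positive 4-OHT libraries had 229 and 236 CPM, against 284 and 237 CPM with ethanol and 256 and 273 CPM untreated. The 4-OHT libraries were the lowest of the 6, but 1 ethanol library lay within 1 CPM of them. The log2 change was -0.16 against ethanol (95% interval -0.36 to 0.04; adjusted p = 0.189) and -0.19 against untreated cells (-0.39 to 0.01; adjusted p = 0.134). These values did not pass, and the call is sensitive to single libraries: without ethanol library 4 the change against ethanol was -0.29 (adjusted p = 0.0484), and without library 3 it was -0.03.

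Rmrp differed between the lines. In the Cre-negative line Rmrp stood at 455 and 338 CPM after 4-OHT. The ethanol libraries of that line had 354 and 413 CPM, and the untreated ones 410.3 and 379.7 CPM. Every one of these 6 values lay above every one of the 6 Cre-positive values. Cre-positive cells had 0.59-fold the Cre-negative level of Rmrp under 4-OHT (95% interval 0.51 to 0.67, adjusted p = 3.95e-07). The ratio was 0.68-fold under ethanol (0.59 to 0.78, adjusted p = 3.25e-05) and 0.67-fold without treatment (0.58 to 0.77, adjusted p = 2.91e-05). Without library 6 the log2 difference under 4-OHT was -0.97, and with it -0.77. The lines differ in many genes, with 60.7%, 54.5% and 49% of genes called in these 3 comparisons, and Cre and the line of origin cannot be told apart. Adipocyte and cartilage markers moved with the line too, with summed levels of 14.1 to 24.7 CPM in Cre-positive and 99.0 to 125 CPM in Cre-negative libraries, and 5 of the 6 markers passed the filter. Fibroblast markers summed to 7133 to 7613 CPM in Cre-positive and 5292 to 5928 CPM in Cre-negative libraries, and 8 of the 9 tested were higher in Cre-positive cells in each of the 3 comparisons. The nuclear RNAs Malat1 and Neat1 were both higher in Cre-positive cells too, by 0.48 and 1.25 on the log2 scale with 4-OHT, library 6 included. The part of these values in the Rmrp difference was not tested.

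Within the Cre-negative line no change of Rmrp passed. The log2 change with 4-OHT was 0.05 against ethanol (95% interval -0.15 to 0.24; adjusted p = 0.846) and 0.00 against untreated cells (-0.19 to 0.20; adjusted p = 0.986). Without library 6 these changes were 0.25 and 0.20, and without library 5 they were -0.19 and -0.22, none past the threshold. The Cre-negative 4-OHT libraries differed by more than those of any other group, and this limits the test between the lines. The 4-OHT effect differed by -0.21 with ethanol as the baseline (95% interval -0.49 to 0.07; adjusted p = 0.267) and by -0.19 with untreated cells (-0.47 to 0.09; adjusted p = 0.346). Without library 5 these differences were 0.01 and 0.02, and without library 6 they were -0.41 and -0.39 and passed the test (adjusted p = 0.00947 and 0.0141).

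The order of Rmrp group means was 397 ± 82 CPM in Cre-negative 4-OHT cells, 395 ± 22 in Cre-negative untreated, 384 ± 42 in Cre-negative ethanol, 265 ± 12 in Cre-positive untreated, 260.4 ± 33 in Cre-positive ethanol and 232 ± 5.5 in Cre-positive 4-OHT cells (SD, n = 2 each). Neighbours within the first 3 overlapped, as did the untreated and ethanol Cre-positive groups. The step between the lines and the step to Cre-positive 4-OHT cells showed no overlap of libraries, but the step to 4-OHT did not pass its test.

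Because Rpph1 and Rmrp enter enzymes that share proteins, their ratio was taken within each library. It was 49.2 and 49.7 counts of Rpph1 per count of Rmrp in Cre-positive 4-OHT cells, against 33.3 and 37.8 in Cre-positive ethanol cells and 32.8 and 31.5 in untreated ones. Cre-negative libraries had ratios of 23.7 and 32.2 after 4-OHT. Their ethanol counterparts had 29.9 and 27.5, and those left untreated 27.6 and 29.7. Both Cre-positive 4-OHT libraries lay above the other 10. A ratio within a library does not depend on scaling, and it shows only that the 2 RNAs changed unequally.

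Terc was higher with 4-OHT than with ethanol in Cre-positive cells. It had 19.6 and 17.8 CPM in the 4-OHT libraries, against 14.7 and 11.8 CPM in the ethanol libraries. The untreated Cre-positive libraries had 18.5 and 17.2 CPM, beside the 4-OHT values and above both ethanol values. The change against ethanol was 1.42-fold (95% interval 1.23 to 1.64; log2 0.50, SE 0.10, adjusted p = 0.000449), whereas against untreated cells it was 1.05-fold (0.91 to 1.21; adjusted p = 0.633). With both kinds of control pooled as 1 baseline the log2 change was 0.28, still past the threshold.

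Terc was lower in ethanol than in untreated Cre-positive cells. The labels give 5 days for ethanol and no time for untreated cells, so ethanol and time in culture cannot be told apart. The log2 change of ethanol against untreated was -0.44 (SE 0.11, adjusted p = 0.00745), in a comparison where 14.9% of genes were called. It rested on single libraries, since it was -0.28 without ethanol library 4 (adjusted p = 0.149) and -0.37 without untreated library 7 (adjusted p = 0.0977). In the same comparison Rpph1 rose slightly (log2 0.11, adjusted p = 0.0419), a call that 10 of 19 alternatives lost, and Rmrp had a log2 change of -0.02 (adjusted p = 0.919).

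In Cre-negative cells Terc had 19.7 and 16.1 CPM with 4-OHT, 18.8 and 19.1 CPM with ethanol and 20.1 and 21.9 CPM untreated. The 4-OHT libraries enclosed the ethanol ones, and the untreated libraries were the highest. No change passed: the log2 change of 4-OHT was -0.09 against ethanol (95% interval -0.30 to 0.11; adjusted p = 0.667) and -0.24 against untreated cells (-0.45 to -0.04; adjusted p = 0.092). Without library 6 these were 0.06 and -0.10. Ethanol against untreated gave -0.15 (-0.36 to 0.05; adjusted p = 0.286), where 24.5% of genes were called. Rpph1 (-0.04, adjusted p = 0.477) and Rmrp (-0.04, adjusted p = 0.804) did not pass in that comparison either.

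The 4-OHT effect on Terc differed between the lines by 0.59 with ethanol as the baseline (SE 0.14, adjusted p = 0.0032), and by 0.31 with untreated cells (95% interval 0.02 to 0.60; adjusted p = 0.118), which did not pass. Without library 6 the difference on the ethanol baseline was 0.45 and still passed (adjusted p = 0.0332), and on the untreated baseline it was 0.16 (adjusted p = 0.498). Between the lines, Terc was lower in Cre-positive cells with ethanol (log2 -0.52, SE 0.10, adjusted p = 0.00019). Untreated it had a log2 difference of -0.23 (SE 0.10, adjusted p = 0.0597), and with 4-OHT 0.08 (SE 0.097, adjusted p = 0.513), or -0.07 without library 6. All 4 comparisons in which Terc was called use the Cre-positive ethanol libraries.

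Terc group means, high to low, were 21.0 ± 1.3 CPM in Cre-negative untreated cells, 18.9 ± 0.22 in Cre-negative ethanol, 18.7 ± 1.2 in Cre-positive 4-OHT, 17.9 ± 2.5 in Cre-negative 4-OHT, 17.8 ± 0.97 in Cre-positive untreated and 13.3 ± 2.0 in Cre-positive ethanol cells (SD, n = 2 each). The ranges of the 4 middle groups overlapped from each to the next. The highest group, Cre-negative untreated, and the lowest, Cre-positive ethanol, overlapped no neighbour.

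**Figure D3:**
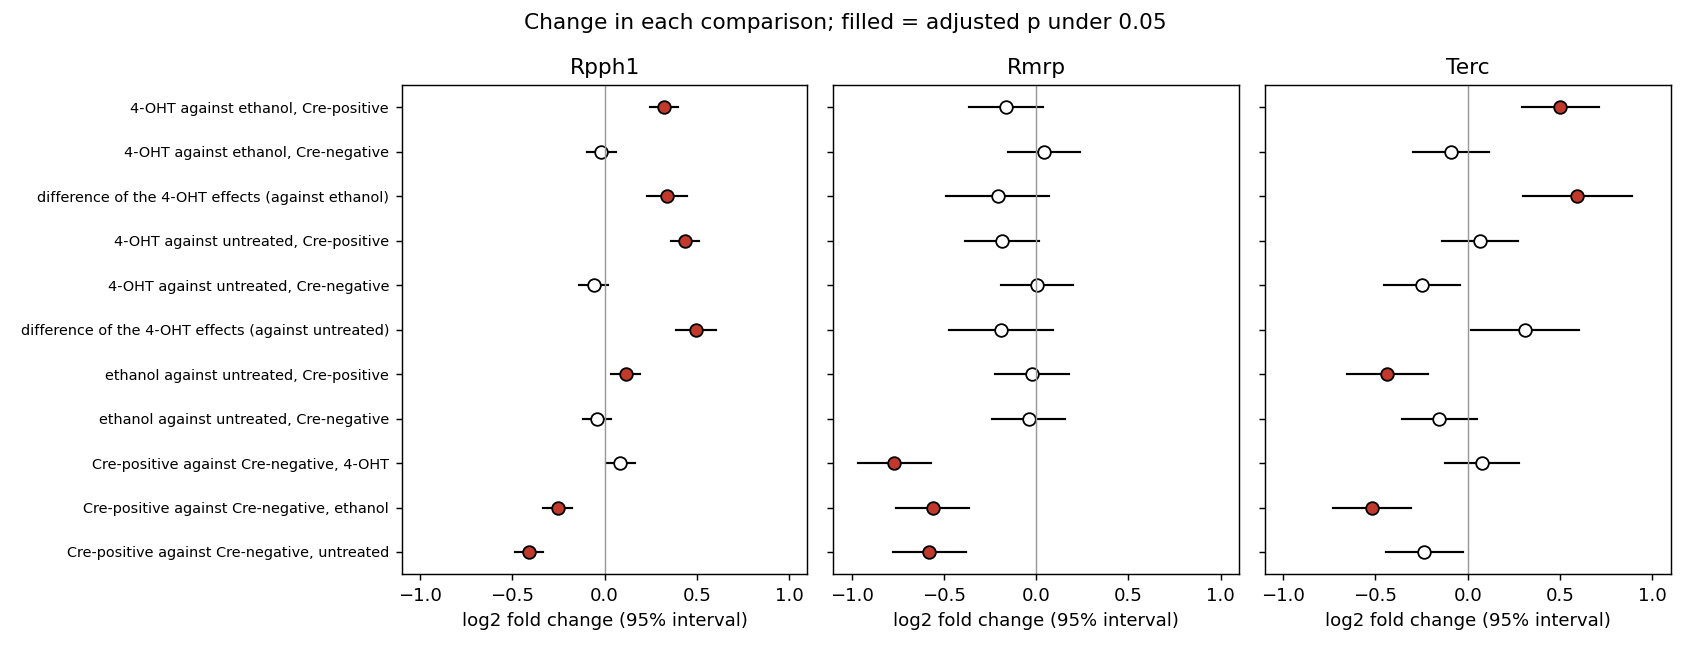
Log2 fold change (horizontal axis, points, with 95% intervals) of Rpph1, Rmrp and Terc in 11 comparisons (rows), each given as the first-named group over the second. Filled points had an adjusted p under 0.05. Rpph1 is positive in both Cre-positive 4-OHT comparisons, Rmrp is called only in the 3 comparisons between the lines, and the 4 comparisons in which Terc is called all use the Cre-positive ethanol libraries.

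Across the 12 libraries the 3 RNAs followed each other weakly: Pearson's r of log2 CPM was 0.44 for Rpph1 and Rmrp, 0.54 for Rpph1 and Terc and 0.51 for Rmrp and Terc. Without library 6 these values were 0.43, 0.58 and 0.54. These r values describe 6 groups and share library depth. Of 12508 other tested genes with an average log2 CPM of at least 1, the patterns most like Rpph1 were those of Lamp1 (r = 0.957), Wbp5 (0.957) and Wwtr1 (0.955). Those most like Rmrp were Gm12251 (0.968), Cyp20a1 (0.967) and Dhx16 (0.963). Those most like Terc were Rab29 (0.967), Mrpl28 (0.935) and Cog2 (0.935). Each r is a description over 12 libraries and the highest of 12508 values.

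The coding gene beside Rpph1 fell where Rpph1 rose. Parp2, transcribed away from Rpph1 across the shared upstream DNA printed above, averaged 30.3 ± 0.52 CPM in Cre-positive 4-OHT cells, 37.4 ± 0.34 with ethanol and 39.8 ± 0.96 untreated (SD, n = 2 each). It fell by 0.31 on the log2 scale against ethanol (adjusted p = 0.000155) while Rpph1 rose, and it fell by 0.39 against untreated cells (adjusted p = 9.18e-06). In Cre-negative cells Parp2 averaged 46.9 ± 0.066 CPM with 4-OHT, 49.0 ± 1.3 with ethanol and 39.1 ± 2.0 untreated, a log2 change against ethanol of -0.06 (adjusted p = 0.559), also -0.06 without library 6. Against untreated Cre-negative cells Parp2 rose with 4-OHT by 0.26 (adjusted p = 0.00155), or 0.26 without library 6 (adjusted p = 0.0174). The 4-OHT effect on Parp2 differed between the lines by -0.24 with ethanol as the baseline (adjusted p = 0.0204 by edgeR), where 28.3% of genes passed. That call was lost without library 6, at an unchanged -0.24. With untreated cells as the baseline the difference was -0.65 (adjusted p = 3.35e-06), also -0.65 without library 6. The ratio of Rpph1 to Parp2 counts was 367 and 393 in Cre-positive 4-OHT cells, against 250.4 and 241 in Cre-positive ethanol cells. Ttc5, the nearest neighbour on the other side of Rpph1, had a log2 change of 0.02 (adjusted p = 0.868).

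Ccdc107, which overlaps Rmrp, averaged 23.96 ± 0.34 CPM in Cre-positive 4-OHT cells, 21.3 ± 0.033 with ethanol and 20.8 ± 1.1 untreated (SD, n = 2 each). Its log2 change was 0.17 against ethanol (adjusted p = 0.0676), which did not pass, and 0.20 against untreated cells (adjusted p = 0.0338), which did. Between the lines Ccdc107 had a log2 difference of -0.05 with 4-OHT (adjusted p = 0.539), or -0.11 without library 6 (adjusted p = 0.307). It was lower in Cre-positive cells with ethanol (log2 -0.20, adjusted p = 0.0225), and untreated the difference was -0.11 (adjusted p = 0.232). Rmrp differed by -0.77, -0.56 and -0.58 in the same 3 comparisons. Counts of Rmrp per count of Ccdc107 were 9.64 and 9.76 in Cre-positive 4-OHT cells, 13.3 and 11.1 in Cre-positive ethanol cells and 17.6 and 14.1 in Cre-negative 4-OHT cells. Arhgef39, 3078 bases upstream of Rmrp, rose by 0.26 against ethanol in Cre-positive cells (adjusted p = 0.0444), and against untreated cells its log2 change was 0.13 (adjusted p = 0.341). The pseudogene Gm21960 beside Terc had a log2 change of 0.35 (adjusted p = 0.332) at about 1 CPM. Sit1 on the far side of Rmrp had 7 counts and Gm24136 beside Terc 37 counts over all libraries.

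**Figure D4:**
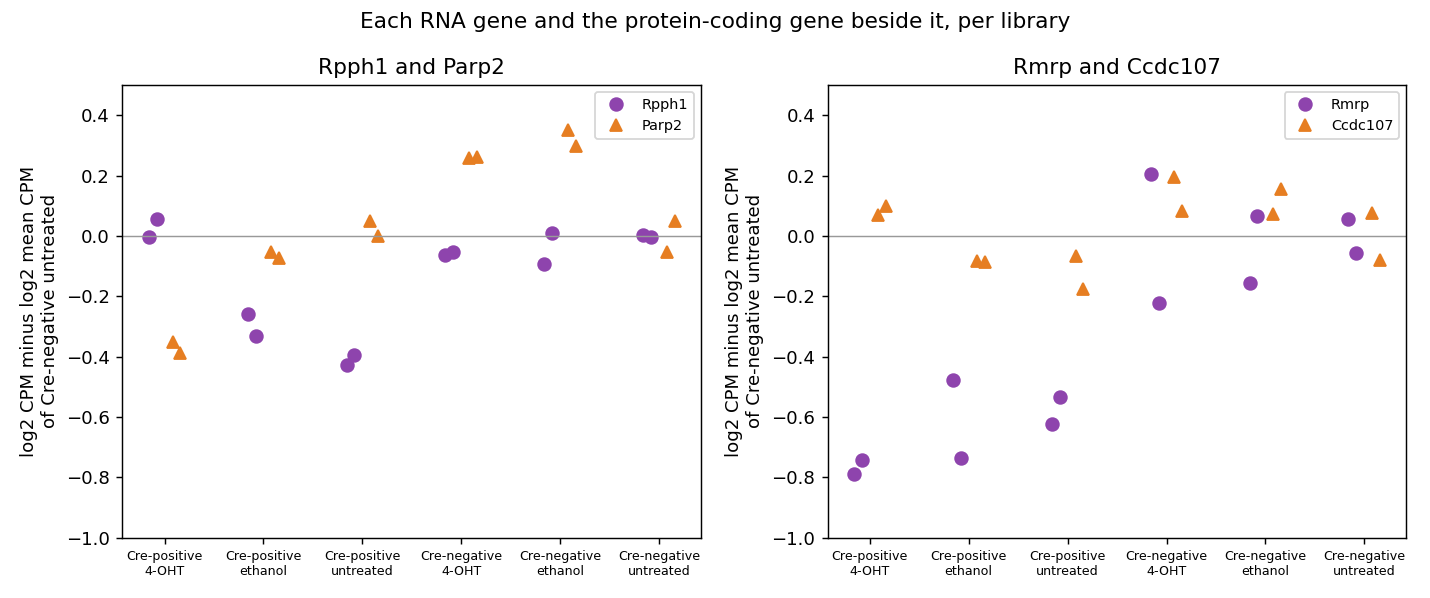
Levels of Rpph1 with Parp2 (left) and of Rmrp with Ccdc107 (right) in each of 12 libraries, as log2 CPM minus the log2 of the mean CPM of Cre-negative untreated cells (vertical axis). Circles are the RNA genes and triangles the coding genes. In Cre-positive 4-OHT cells Rpph1 is up and Parp2 down against the ethanol libraries, and between the lines Rmrp is apart in all libraries, while Ccdc107 overlaps with 4-OHT and untreated and is lower in Cre-positive cells with ethanol.

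The partners of the 3 RNAs were counted from lists of their proteins, in 4-OHT against ethanol in Cre-positive cells, where 21.1% of all genes rose and 17.2% fell with a median log2 change of 0.03. Of 10 tested proteins of RNase P and RNase MRP, 4 rose, 1 fell and 5 did not pass (median 0.15). The fall was Pop1, the largest subunit, at 44.8 ± 0.67 CPM with 4-OHT and 59.9 ± 0.90 CPM with ethanol (SD, n = 2 each; log2 -0.42, adjusted p = 4.39e-07). Pop7, which binds the RNA as a pair with Rpp25 or its relative Rpp25l, rose to 30.2 ± 1.0 CPM, against 21.6 ± 1.1 CPM with ethanol (log2 0.49, adjusted p = 2.38e-05). Rpp30 (0.26, adjusted p = 0.00217) and Rpp25l (0.27, adjusted p = 0.0127) rose as well, and Rpp25 had 6 counts or fewer in each library. The number that rose was 2 without library 4, without library 11 or with DESeq2.

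Mitochondria hold another RNase P, made of protein alone. Of its 3 subunits, 2 rose: Trmt10c (log2 0.17, adjusted p = 0.0144), a transfer RNA methyltransferase, and 1110008L16Rik (0.31, adjusted p = 0.0258), the row that current annotation names Prorp, the nuclease itself. The number that rose was 0 without library 4, without library 11 or with DESeq2, and 1 with the compared groups only. Among 10 genes of later transfer RNA processing, 1 rose and 2 fell (median -0.08). Elac1, a tRNA 3′ nuclease, fell by 0.27 (adjusted p = 0.0156), and Clp1, an RNA kinase, rose by 0.22 (adjusted p = 0.0286). That rise was lost without library 3, 4, 9, 10, 11 or 12, without the filter and with DESeq2. The number that fell was 1 without library 3, 4 or 11 or with DESeq2, and 3 without library 1, 2, 5, 9 or 10 or with any other scaling. Among 7 genes that process the internal transcribed spacers of ribosomal RNA, 6 fell and 0 rose (median -0.34). They included Ftsj3 (-0.45), Bop1 (-0.35), the exonuclease Xrn2 (-0.34) and the kinase Nol9 (-0.32), with adjusted p between 1.26e-07 for Ftsj3 and 8.87e-05 for Nol9. In Cre-negative cells, where 5.99% of all genes were called, 0 of these 7 passed, and 1 rose without library 6. The difference of the 4-OHT effects between the lines was negative and passed for 6 of the 7 (5 without library 6), where 28.3% of all genes passed.

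Of 10 tested telomerase proteins and assembly factors, 6 fell and 1 rose (median -0.23), while Terc rose on the same baseline. Dkc1, the dyskerin that binds Terc, stood at 145 ± 2.7 CPM with 4-OHT and 190.5 ± 1.5 CPM with ethanol (log2 -0.39, adjusted p = 6.36e-08). Gar1, another protein of H/ACA particles, fell by 0.64 (adjusted p = 3.21e-06), and the difference of the 4-OHT effects between the lines was -0.99 for Gar1 (adjusted p = 1.81e-06), or -1.06 without library 6. Wrap53, which brings telomerase to Cajal bodies, fell by 0.33 and Ruvbl2, an assembly ATPase, by 0.23. Tert, the reverse transcriptase, was near the detection limit at 0.93 ± 0.045 CPM with 4-OHT and 0.86 ± 0.033 CPM with ethanol (adjusted p = 0.781). The number that fell was 4 without library 4 or 11, and the single rise was lost in 14 of 20 alternatives. In Cre-negative cells, where 5.99% of all genes were called, 1 of the 10 rose, which was Gar1, and 0 fell, with or without library 6.

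Of 16 genes of Terc 3′ maturation and decay, 7 fell and 1 rose (median -0.04). Zfc3h1 (-0.50, adjusted p = 4.82e-08) and Skiv2l2 (-0.19, adjusted p = 0.000651), which pass RNAs to the nuclear exosome, fell, as did the cytoplasmic exonuclease Xrn1 (-0.38, adjusted p = 4.29e-06). Ncbp2, a cap-binding protein, rose by 0.28 (adjusted p = 0.000172), and with pooled controls 3 rose. Of 10 telomere-binding proteins, 1 rose and 2 fell (median 0.03): Terf1, which binds the double-stranded repeat, fell by 0.49 (adjusted p = 6.3e-06), Ctc1 fell by 0.20 (adjusted p = 0.0429) and its partner Obfc1 rose by 0.26 (adjusted p = 0.0137). The number that rose was 0 without library 3 or 12, with pooled controls or with DESeq2, and 2 without library 4. The number that fell was 1 without library 4 or 11 or with DESeq2.

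Genes for the machinery that transcribes Rpph1 and Rmrp rose and fell. Of 11 RNA polymerase III subunits, 6 fell and 1 rose (median -0.23), with Polr3g at -0.56 and Polr3e at -0.39, while Polr3k rose by 0.32 (adjusted p = 4.21e-05). The number that rose was 2 without library 3 or with pooled controls. Of 10 factors of gene-external promoters, 4 rose and 1 fell (median 0.06). Snapc2 (0.24), Zfp143 (0.25) and Brf2 (0.29) rose, and Pou2f1, which encodes the octamer-binding Oct-1, fell by 0.24 (adjusted p = 0.0112). The number that rose was 2 with DESeq2, 3 with only the compared groups and 5 with pooled controls. Fewer rose, and the fall of Pou2f1 was lost, when some single libraries were left out.

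Of 4 other RNA polymerase III products that could be tested, 1 rose, 1 fell and 2 did not pass. Rn7sk, the RNA that holds the elongation factor P-TEFb inactive and uses the same kind of promoter as Rpph1, averaged 14554 ± 448 CPM in Cre-positive 4-OHT cells, 11835 ± 710 with ethanol and 11230.5 ± 571 untreated (SD, n = 2 each). It rose by 0.30 against ethanol (adjusted p = 7.47e-06), and its 4-OHT effect differed between the lines by 0.37 (adjusted p = 5.93e-05), or 0.35 without library 6. Rny3, a Y RNA, had 160.4 and 155.5 CPM with 4-OHT, 216.8 and 189.5 CPM with ethanol and 132.6 and 166.9 CPM untreated. It fell by 0.36 against ethanol (adjusted p = 0.00194), a call lost with robust variance or pooled controls, and its log2 change against untreated cells was 0.08 (adjusted p = 0.497). Rny1 (-0.10, adjusted p = 0.371) and the vault RNA Vaultrc5 (0.07, adjusted p = 0.561) did not pass. Rn5s was listed at 0 in all libraries and Rnu6 at 2 counts or fewer.

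**Figure D5:**
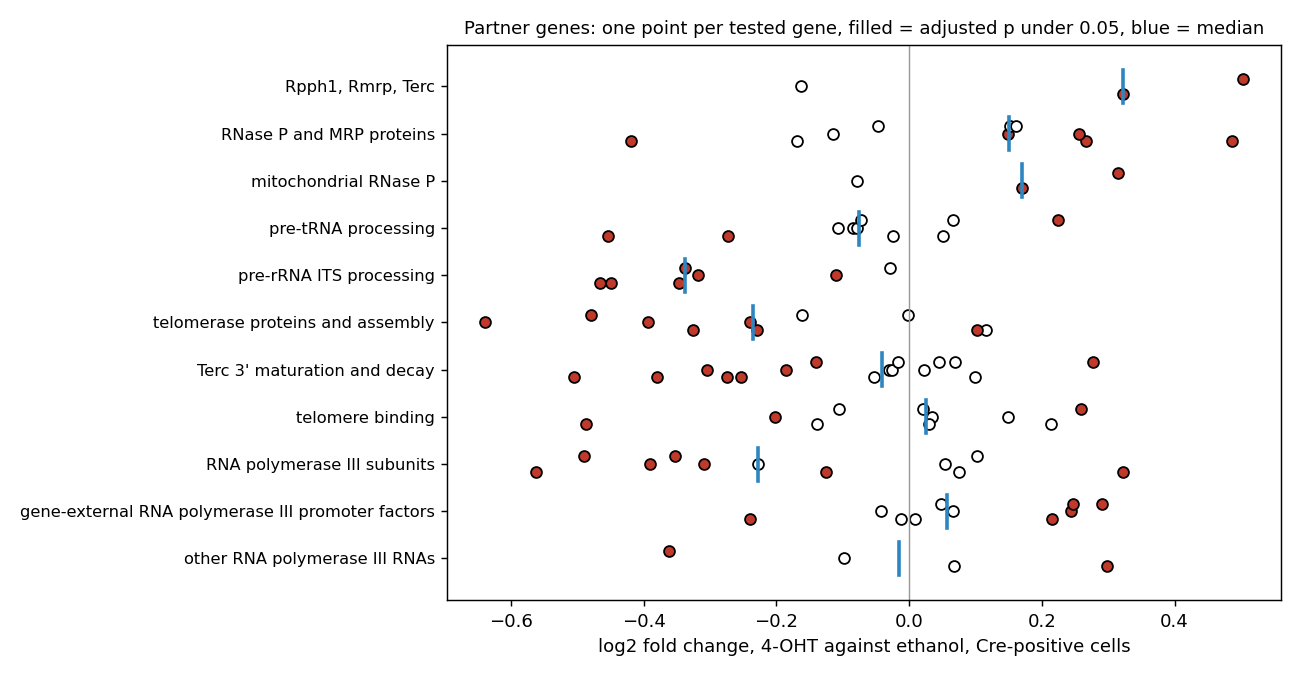
Log2 fold change of 4-OHT against ethanol in Cre-positive cells (horizontal axis) for the 3 RNAs and for each tested gene of their partner lists (rows), 1 point per gene. Filled points had an adjusted p under 0.05 and blue bars are list medians. The pre-rRNA, telomerase and RNA polymerase III subunit lists lie mostly below 0, with medians of -0.34, -0.23 and -0.23.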

How the data were processed

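RNA was measured in 12 libraries made with a stranded total RNA kit after ribosomal RNA depletion, per the labels' protocols. The deposited values are expected counts per gene symbol, held as whole numbers. RSEM 1.2.30, STAR 2.5.2a, cutadapt 1.11, edgeR and the GRCm38 build are listed in the submitters' processing notes. Of the annotation, strand setting, filters and rounding the sources used here say nothing. Column purification recovers short RNAs incompletely, which can affect the level of all 3 RNAs.

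The tests used edgeR 4.0.16 (R 4.3.3). Of 47517 genes, 17609 passed filterByExpr. Scaling was by TMM, with factors between 0.972 and 1.02. A quasi-likelihood fit over all 12 libraries gave each group its own mean and a shared spread. Each 2-sided p was adjusted by Benjamini-Hochberg over all genes tested, with a threshold of 0.05. The common dispersion was 0.00119. CPM uses scaled totals. Standard errors came from the F statistic. The code was tested on simulated data, where the share of false calls was above the threshold on the adjusted p, so calls close to it are less certain. Libraries of a group differed by more than sampling (chi-square per degree of freedom 2.37 to 4.60), so none was counted as a copy. Coordinates came from GENCODE M21, sequence matches from blastn 2.17.0 and promoters from RefSeq.

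There were 11 comparisons. Alternatives were other scalings, no filter, robust variance, only the compared groups, pooled controls, DESeq2 1.42.0 and leaving out each library. The labels name no batch. Members and lists were chosen with earlier results of these data known. Named list genes are up to 4 per list with the smallest p among those past the threshold in 4-OHT against ethanol in Cre-positive cells, with the annotated neighbours and the 3 genes most like each member. Some genes that meet this rule are not reported here by name. Tert, Rpp25, Rny1, Vaultrc5 and Rnu6 were named outside this rule, after their values were seen.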

Additional observations from a re-analysis of the deposited data

Results flagged for a closer look

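The effect of 4-OHT on Rpph1 differed between the line with Cre and the line without it. The difference was 0.34 on the log2 scale with ethanol as the baseline and 0.50 with untreated cells (adjusted p = 6.25e-05 and 7.78e-07 by edgeR). Both 4-OHT libraries of the Cre-positive line were above its other 4 libraries.

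Terc also differed, by 0.59 with ethanol as the baseline (adjusted p = 0.0032). In both 4-OHT libraries of the Cre-positive line Terc was above both ethanol libraries and beside the untreated ones, and the difference on the untreated baseline was 0.31 (adjusted p = 0.118). Groups of 2 libraries are too small for a check of outlying samples.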

How the results depend on the processing

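Calls held in every alternative for Rpph1 in both Cre-positive 4-OHT comparisons, both differences of effects and the lines with ethanol and untreated, for Rmrp in all 3 comparisons of the lines, and for Terc with 4-OHT against ethanol in Cre-positive cells, its difference on the ethanol baseline and the lines with ethanol. Apart from leaving out libraries, these calls or signs changed, mostly with little change in the log2 value. Without the filter Rmrp was -0.17 (4-OHT against ethanol, Cre-positive), -0.18 (against untreated), -0.20 and -0.18 (differences on the ethanol and untreated baselines), all past the threshold, and -0.0023 (4-OHT against untreated, Cre-negative), a reversed sign near 0. With the compared groups only, Rmrp was -0.18 and -0.20 in the first pair and passed. Rpph1 between the lines with 4-OHT passed at 0.083 without the filter, 0.083 with the compared groups only and 0.085 with robust variance. Rpph1 with ethanol against untreated in Cre-positive cells did not pass with library totals (0.089), the compared groups only (0.12) or upper-quartile scaling (0.10). Terc passed without the filter at -0.25 (4-OHT against untreated, Cre-negative) and -0.25 (lines, untreated), and in the last also at -0.23 with the compared groups only and -0.23 with robust variance. The causes were not tested, but the compared groups only and no filter change the genes and samples that set the spread.

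Leaving out each library in turn gave these log2 ranges. Rmrp: 4-OHT against ethanol -0.19 to 0.25 in Cre-negative and -0.29 to -0.030 in Cre-positive cells, 4-OHT against untreated -0.22 to 0.20 and -0.23 to -0.14, differences -0.41 to 0.0065 (ethanol baseline) and -0.39 to 0.018 (untreated baseline), ethanol against untreated -0.15 to 0.075 and -0.16 to 0.10. Rpph1: 4-OHT against ethanol in Cre-negative cells -0.080 to 0.030, lines with 4-OHT 0.054 to 0.12, ethanol against untreated -0.090 to 0.020 in Cre-negative and 0.078 to 0.15 in Cre-positive cells. Terc: 4-OHT against ethanol in Cre-negative cells -0.24 to 0.057, 4-OHT against untreated -0.38 to -0.096 in Cre-negative and -0.0031 to 0.13 in Cre-positive cells, lines -0.072 to 0.20 with 4-OHT and -0.30 to -0.17 untreated, difference on the untreated baseline 0.16 to 0.43, ethanol against untreated in Cre-positive cells -0.60 to -0.28. A group left with 1 library was assumed to vary like the others.

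The 1054 genes called with 4-OHT against ethanol in Cre-negative cells became 1733 with pooled controls, 1648 with the compared groups only, and 274 (without library 5) to 1281 with a library left out. With a library left out, 4-OHT against untreated in Cre-negative cells gave 2156 to 3681 genes (3388 with all), ethanol against untreated 2775 to 4566 in Cre-negative (4313) and 1440 to 2644 in Cre-positive cells (2632). No near-identical copy of a member was found, so summing copies gave no value. No paired analysis was possible because the library numbers run through the series and no 2 groups share one. Depth limits Terc most, with 349 to 691 counts per library.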

Other observations

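A sequence search found 24 annotated genes with some match to Rpph1. Among them, Rprl1, Rprl2 and Rprl3 match it with 83.7%, 85.6% and 86.0% identity over 80.6% of its length. Gm25694 matches 93.4% of its length with 74.7% identity and had 25 counts over all libraries. The Rprl genes were close to 0, with at most 2 counts of Rprl1 and 6 of Rprl3 in a library, while Rpph1 had at least 174953. Rprl2 was the exception, with 219 counts in library 6 (Cre-negative, 4-OHT) and 0 to 4 in the other 11.

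Library 6 also had the most counts of 3 epithelial markers, with 44 of Krt8 against 1 to 8 in the others, 17 of Krt18 against 0 to 3 and 9 of Epcam against 0 to 1. It was the only library with genes at 20 counts or more that had at most 4 in each other library, and these 3 genes were Rprl2, Gm24687 and Rpl10a-ps2. Like Rprl2, Gm24687 matches Rpph1, with 82.2% identity over 31.7% of the length of Rpph1. The 3 genes were chosen after their values were seen and hold 263 counts together. Their relation to the levels of Rpph1, Rmrp and Terc was not tested.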
